A study of Mus musculus with 8 samples.

Results

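Cadherins are calcium-dependent cell adhesion proteins. The genes described here are the protein-coding genes of the deposited table whose symbol is Cdh or Pcdh followed by a number (an x may follow it in Pcdh symbols). The rule found 28 of 13643 protein-coding genes, 16 cadherins and 12 non-clustered protocadherins; the table holds 16913 genes in all. RNA was profiled by sequencing from the lateral ganglionic eminence (LGE), the embryonic source of striatal projection neurons, at embryonic day 14.5. In the Meis2-CKO group (4 samples, Dlx5/6-Cre;Meis2F/F) both Meis2 alleles were floxed, and in the littermate control group (4 samples, Dlx5/6-Cre;Meis2F/+) the floxed allele stood beside an intact one, so the controls are not wild type and both groups carried Cre. All embryos were of a mixed C57BL/6J and CD1 background. Cre was driven by Dlx5/6 elements, which are active in Dlx-expressing cells of the ventral forebrain, so other cells of the dissected tissue keep their Meis2 alleles.

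Classical cadherins bind the same or a related cadherin on the neighbouring cell through their extracellular repeats and bind catenins, which link them to actin, through their cytoplasmic tail. Type I members, such as N-cadherin, hold the adherens junctions of the ventricular surface, while type II members are expressed in overlapping regional patterns that subdivide the forebrain. Non-clustered protocadherins, grouped as delta1 and delta2 by their cytoplasmic motifs, are weaker adhesion molecules that also act through other partners such as the WAVE actin regulators.

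None of the 28 genes differed between Meis2-CKO and control at an adjusted p of 0.05 in the authors' deposited table, against 0.344% of the protein-coding genes (0.0293% called higher and 0.315% lower) and 0.78% of all 16913 genes (0.237% higher and 0.544% lower). Before adjustment, 0 of the 28 had a p under 0.05, beside 1.36% of the protein-coding genes and 2.17% of all genes, in the authors' deposited table. No source used here names the tool that made these p-values. The members' p-values ran between 0.269 and 0.966 with a median of 0.749, beside a median of 0.760 for the whole of the authors' deposited table. With so high a median over all genes, a high p was common there and does not show that levels were equal. In the authors' deposited table the log2 fold change (Meis2-CKO over control) was above 0 for 16 members and below 0 for 12, with a median of 0.02 in the members and 0.01 in the whole table. The authors' means summed over the 28 members to 274 in Meis2-CKO and 273 in control. All levels below are these authors' means per genotype, on an expression signal whose unit the file does not name and which appears scaled by gene length. They come without a spread between embryos, and values of individual libraries were not used, so whether samples of the groups overlap is not shown. In bulk tissue, fewer cells of a type and less RNA per cell cannot be told apart.

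The size of change that was called depended on level. Among protein-coding genes whose higher mean lay between 5 and 25, the range that held 14 members, the smallest called log2 change had a size of 0.89 (Socs2), and 25 of 5327 genes were called in the authors' deposited table. The largest size among the 14 members there was 0.45 (Pcdh9). Their median size was 0.16, beside 0.09 for all protein-coding genes of that range, in the authors' deposited table. The same medians were 0.22 and 0.15 between 1 and 5, and 0.35 and 0.24 below 1. Cdh2 had 0.03, beside 0.06 for the protein-coding genes between 25 and 100. Sizes over all protein-coding genes were thus larger at lower levels. Level was not matched within a range, so these medians are a description only. Between 25 and 100, where Cdh2 lay, the smallest called size was 0.51 (Klhl13) in the authors' deposited table. Between 1 and 5 the smallest called size was 2.91 (Ppm1j), with 3 of 2635 genes called, and the 9 members there had sizes of up to 0.33 (Cdh12), in the authors' deposited table. Below 1 none of 1439 protein-coding genes was called. No protein-coding gene in the same range of signal with a change as small as those of the members was called. These sizes describe which changes passed and are no detection limit, and a missing call does not show that a member was unchanged. Socs2, Klhl13 and Ppm1j were named after their values were seen.

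**Figure D1:**
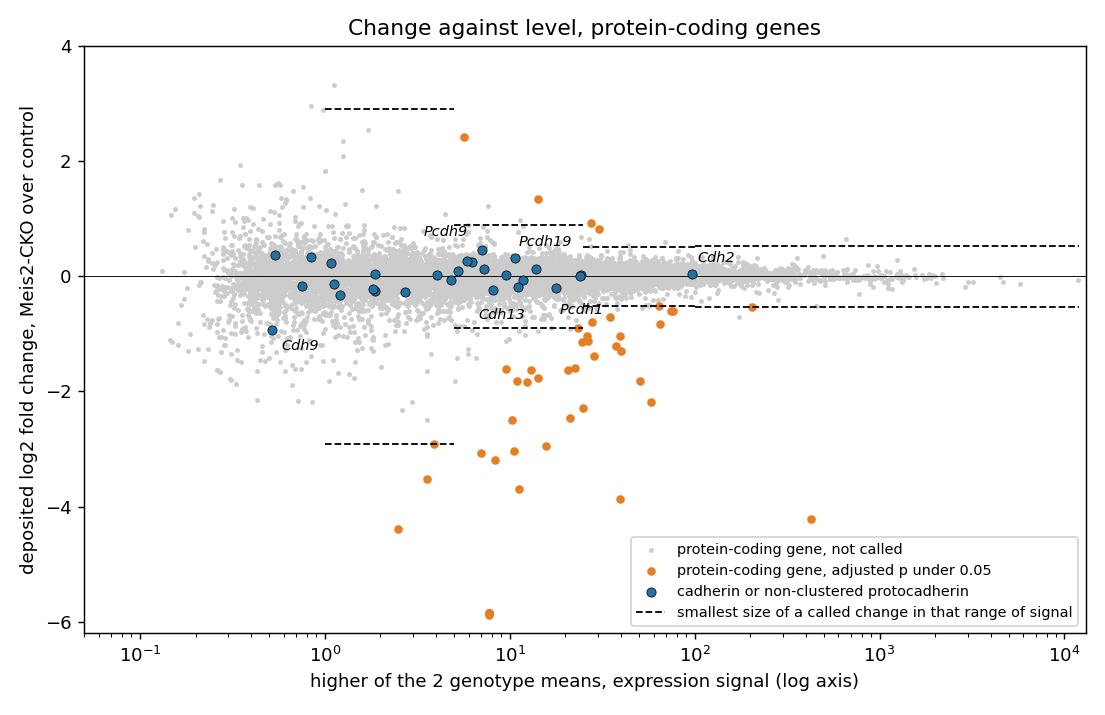
Deposited log2 fold change, Meis2-CKO over control, on the vertical axis against the higher of the 2 genotype means (horizontal log axis, expression signal) for 13643 protein-coding genes, with the 28 members in blue and called genes in orange. The dashed lines mark the smallest size of a called change in each range of signal; all members from a signal of 1 upward lie between them, and Cdh9, at -0.93, lies in the range below 1, where no gene was called.

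The type I classical cadherins were the most abundant group. Cdh2, which encodes N-cadherin of the neuroepithelial adherens junctions, had an authors' mean of 96.4 in Meis2-CKO and 95.1 in control. It made up 35.1% of the members' summed signal in Meis2-CKO and 34.9% in control, and in control it stood 3.91 times above the next member. Its log2 fold change was 0.03 (p = 0.777) in the authors' deposited table, the level being nearly identical in both genotypes. Cdh4, which encodes R-cadherin, a partner of N-cadherin with regional forebrain expression, had authors' means of 13.9 in Meis2-CKO and 12.9 in control, a log2 fold change of 0.12 in the authors' deposited table. Cdh1, Cdh3 and Cdh15 of this type had no row and were not analysed here.

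**Figure D2:**
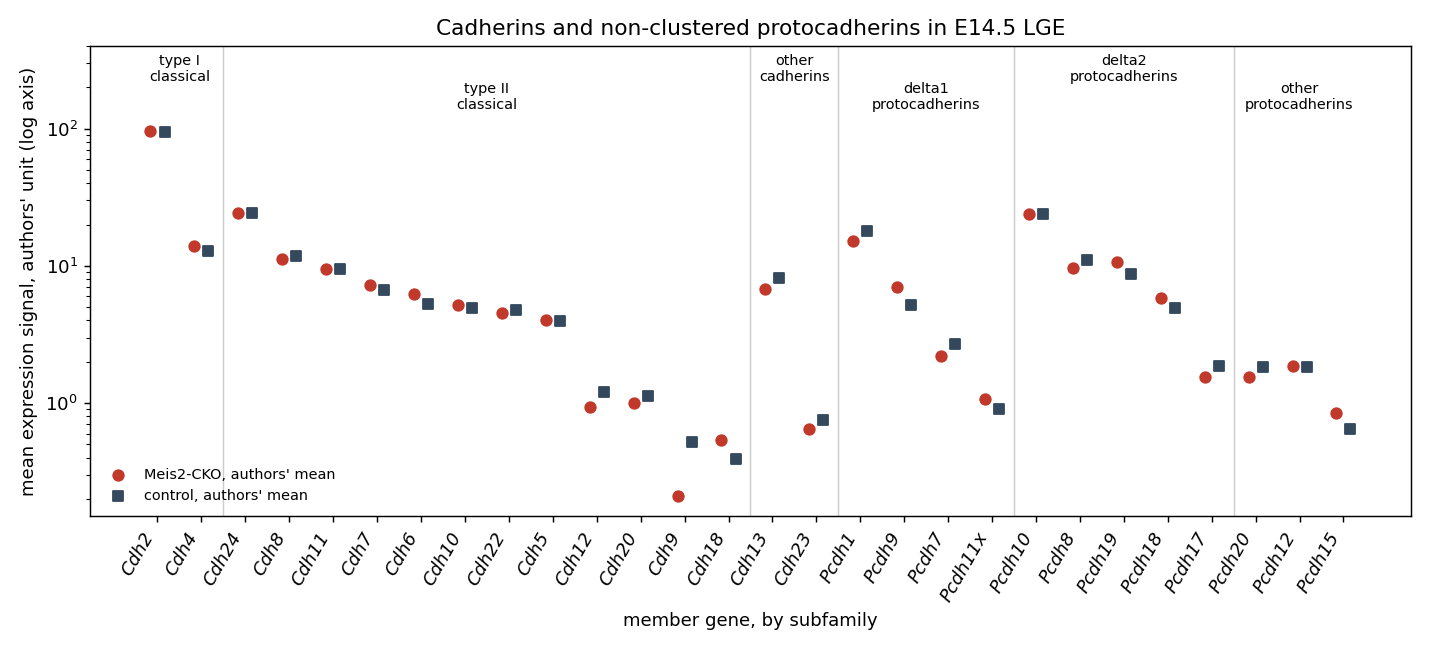
Authors' mean expression signal (vertical log axis) of each of the 28 members in Meis2-CKO (red circles, left) and control (dark squares, right), grouped by subfamily and ordered by the control mean. Cdh2, near 96.4 and 95.1, stands above all others, and the means of both genotypes lie close together for most members, with the widest ratio at Cdh9.

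The 12 type II cadherins covered a wide range of levels, and their direction was mixed, with 7 above 0 and 5 below 0 and a median log2 fold change of 0.02 in the authors' deposited table. Cdh24, a catenin-binding member, was the highest of them, with authors' means of 24.4 in Meis2-CKO and 24.3 in control. Cdh8, whose regional expression marks forebrain divisions and corticostriatal circuits, had 11.3 in Meis2-CKO and 11.9 in control. Cdh11, which encodes OB-cadherin of mesenchyme and neurons, had 9.51 in Meis2-CKO and 9.46 in control. These 3 genes had log2 fold changes between -0.06 and 0.02 in the authors' deposited table, so their means differed little. Cdh6 is the type II member known in the mouse for marking the LGE side of the early boundary with the cortex, where R-cadherin marks the cortical side. It had authors' means of 6.28 in Meis2-CKO and 5.31 in control, a log2 fold change of 0.25 (p = 0.549) in the authors' deposited table. Thus both genes of that boundary pair, Cdh6 and Cdh4, had a somewhat higher mean in Meis2-CKO without passing the test.

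Of the other type II members, Cdh7, a close relative of Cdh20, was the most abundant, with authors' means of 7.29 in Meis2-CKO and 6.70 in control, whereas Cdh20 itself had only 1.005 in Meis2-CKO and 1.12 in control. Cdh10 stood at 5.22 in Meis2-CKO and 4.91 in control. Cdh22, the pituitary and brain cadherin, stood at 4.53 in Meis2-CKO and 4.79 in control. In the authors' deposited table none of these 4 genes had a log2 fold change larger than 0.13 in size. Cdh12 had authors' means of 0.93 in Meis2-CKO and 1.21 in control, and Cdh18 had 0.54 in Meis2-CKO and 0.393 in control. Cdh9, which guides synapse formation in hippocampal circuits, had the widest ratio of all members, 0.21 in Meis2-CKO and 0.518 in control, with a log2 fold change of -0.93 (p = 0.468) in the authors' deposited table. The plain ratio of these means was -1.30 on the log2 scale. Cdh9 was the lowest member in Meis2-CKO, in a range of signal where the table calls no protein-coding gene. Cdh19 had no row and was not analysed here.

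Sequence upstream of the start is shown for the members in which the core letters of a Meis site were found, because Meis2 is the deleted factor, and for Pcdh9, the member with the highest log2 fold change, in which they were not. RefSeq promoter windows on GRCm38.p6 were matched by symbol for 20 of the 28 members (23 windows), and the 250 bases before each start were searched on both strands for the core TGACAG, read CTGTCA from the opposite strand, and for a second core, TAATTA, which many homeodomain proteins including Dlx bind. TGACAG occurred in 3 of 20 members (3 of 23 windows), namely Cdh6, Cdh7 and Cdh20, beside 15.9% of all 32851 windows of the same length. TAATTA occurred in 1 member, Cdh7, beside 4.84% of all windows. Cdh2, Cdh4, Cdh5, Cdh11, Cdh13, Pcdh1, Pcdh11x and Pcdh12 had no matched window and were not searched. The median GC content was 58.4% in the members' windows and 52.4% in all windows. The window of Cdh7 that holds TGACAG overlaps an annotated exon and is not printed. In the sequences below, written 5′ to 3′ on the gene's strand, capitals mark the Meis letters.
Cdh6, chr15:13173676-13173925, minus strand: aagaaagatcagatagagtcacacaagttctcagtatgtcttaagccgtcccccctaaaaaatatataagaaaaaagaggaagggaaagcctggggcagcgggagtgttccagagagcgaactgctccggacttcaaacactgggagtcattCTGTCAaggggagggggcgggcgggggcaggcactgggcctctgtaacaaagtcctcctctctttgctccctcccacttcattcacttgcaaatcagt
Cdh20, chr1:104768270-104768519, plus strand: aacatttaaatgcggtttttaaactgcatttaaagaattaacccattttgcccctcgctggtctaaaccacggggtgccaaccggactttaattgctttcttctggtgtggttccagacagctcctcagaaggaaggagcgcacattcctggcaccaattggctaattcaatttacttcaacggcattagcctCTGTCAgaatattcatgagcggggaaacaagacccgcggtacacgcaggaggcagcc
Pcdh9, chr14:93890680-93890929, minus strand: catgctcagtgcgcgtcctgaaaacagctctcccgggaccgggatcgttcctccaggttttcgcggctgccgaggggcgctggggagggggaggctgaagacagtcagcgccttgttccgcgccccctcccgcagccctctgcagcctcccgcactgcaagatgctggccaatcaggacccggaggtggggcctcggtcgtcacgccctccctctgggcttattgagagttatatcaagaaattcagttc
A match describes the letters and is not a binding site; the members that hold them had log2 fold changes of 0.25 (Cdh6), 0.13 (Cdh7) and -0.13 (Cdh20) in the authors' deposited table, on both sides of 0.

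Outside the classical types, Cdh13 encodes T-cadherin, which is anchored by a lipid and has no cytoplasmic tail. It had authors' means of 6.79 in Meis2-CKO and 8.14 in control, a log2 fold change of -0.24 (p = 0.506) in the authors' deposited table, which is the lowest among members with a mean of at least 5. Cdh23, which forms the tip link of inner-ear hair cells together with Pcdh15, had 0.653 in Meis2-CKO and 0.758 in control. Its tip-link partner Pcdh15 had authors' means of 0.843 in Meis2-CKO and 0.65 in control, so both were at the low end of the table. Cdh16, Cdh17 and Cdh26 had no row and were not analysed here.

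Protocadherins differed more between the means than cadherins did, as a description: the median size of the log2 fold change was 0.24 over the 12 protocadherins and 0.12 over the 16 cadherins in the authors' deposited table. Of the delta1 group, Pcdh1 was the most abundant, with authors' means of 15.2 in Meis2-CKO and 17.8 in control, a log2 fold change of -0.21 (p = 0.395) in the authors' deposited table. Its difference of 2.59 signal units was the largest of any member. Pcdh9 went the other way, with 7.05 in Meis2-CKO and 5.18 in control. It had the highest value of all members, 0.45 or 1.37-fold, and the smallest p, 0.269, in the authors' deposited table. Pcdh7, named NF-protocadherin for the neural fold of Xenopus, had authors' means of 2.21 in Meis2-CKO and 2.72 in control. Pcdh11x, an X-linked member, had 1.08 in Meis2-CKO and 0.905 in control, so 2 of the 4 delta1 genes had a higher and 2 a lower mean.

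Among the 5 delta2 genes, Pcdh10 was the most abundant. It encodes OL-protocadherin, which in mice is needed for the growth of striatal axons and of the tracts that pass the striatum. Its authors' means were 23.9 in both Meis2-CKO and control, and its log2 fold change was 0.01 (p = 0.966) in the authors' deposited table. Pcdh8, known as arcadlin from activity-induced expression in rat hippocampus, had 9.67 in Meis2-CKO and 11.1 in control. Pcdh19, an X-linked gene whose product binds N-cadherin, had 10.7 in Meis2-CKO and 8.68 in control, a log2 fold change of 0.31 (p = 0.334) in the authors' deposited table. Pcdh18 had authors' means of 5.86 in Meis2-CKO and 4.91 in control (a log2 fold change of 0.26 in the authors' deposited table). Pcdh17, which marks parts of the corticobasal ganglia circuit and acts in presynaptic assembly, had only 1.54 in Meis2-CKO and 1.88 in control. Pcdh10 and Pcdh17 thus stood far apart in level, and neither differed between genotypes at the threshold. Pcdh20 had authors' means of 1.54 in Meis2-CKO and 1.83 in control.

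Both X-linked members, Pcdh19 and Pcdh11x, had higher means in Meis2-CKO without passing the test. In the authors' deposited table, of 5 sex-linked genes, 3 passed, all on the Y chromosome and all lower in Meis2-CKO. These were Eif2s3y (14.02 in Meis2-CKO and 50.5 in control), Ddx3y (4.03 in Meis2-CKO and 14.1 in control) and Kdm5d (4.09 in Meis2-CKO and 13.1 in control). Xist, expressed from the inactive X chromosome and named outside the rule, had authors' means of 256 in Meis2-CKO and 78.0 in control and did not pass (adjusted p = 0.985 in the authors' deposited table). The 322 X-linked protein-coding genes with a mean of at least 5 had a median log2 fold change of 0.01, beside 0.02 for the other 9247, in the authors' deposited table. The labels give no sex, and the part of sex in the values of the members was not tested.

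Several members are neighbours in the genome (GENCODE M21 on GRCm38). On chromosome 15 the 5 type II genes Cdh6, Cdh9, Cdh10, Cdh12 and Cdh18 follow each other with no annotated protein-coding gene between them, between 13028701 and 23474418. In that order their authors' means were 6.28, 0.21, 5.22, 0.93 and 0.54 in Meis2-CKO and 5.31, 0.518, 4.91, 1.21 and 0.393 in control. Cdh6 and Cdh10 were thus higher than the other members of the array in both genotypes. In control they exceeded only 31.8% and 30.4% of the protein-coding genes. On chromosome 14, Pcdh8, Pcdh17, Pcdh20 and Pcdh9 lie in this order between 79766775 and 93890679, and the pair at the ends was the more abundant in both genotypes. Pcdh9, at the far end, had a log2 fold change of 0.45 and Pcdh20, next to it with no protein-coding gene between, of -0.22, in the authors' deposited table. On chromosome 8, Cdh8, Cdh11 and Cdh5 also follow each other with no protein-coding gene between, and none had a log2 fold change of more than 0.06 in size in the authors' deposited table. Annotated genes on the opposite strand overlap exons of Pcdh10, Cdh8, Pcdh8, Pcdh19, Pcdh7 and Cdh9, and an antisense-type gene on the same strand overlaps exons of Cdh12; none of these has a row of its own. No source used here says whether counting used strand, so reads of these pairs cannot be told apart.

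**Figure D3:**
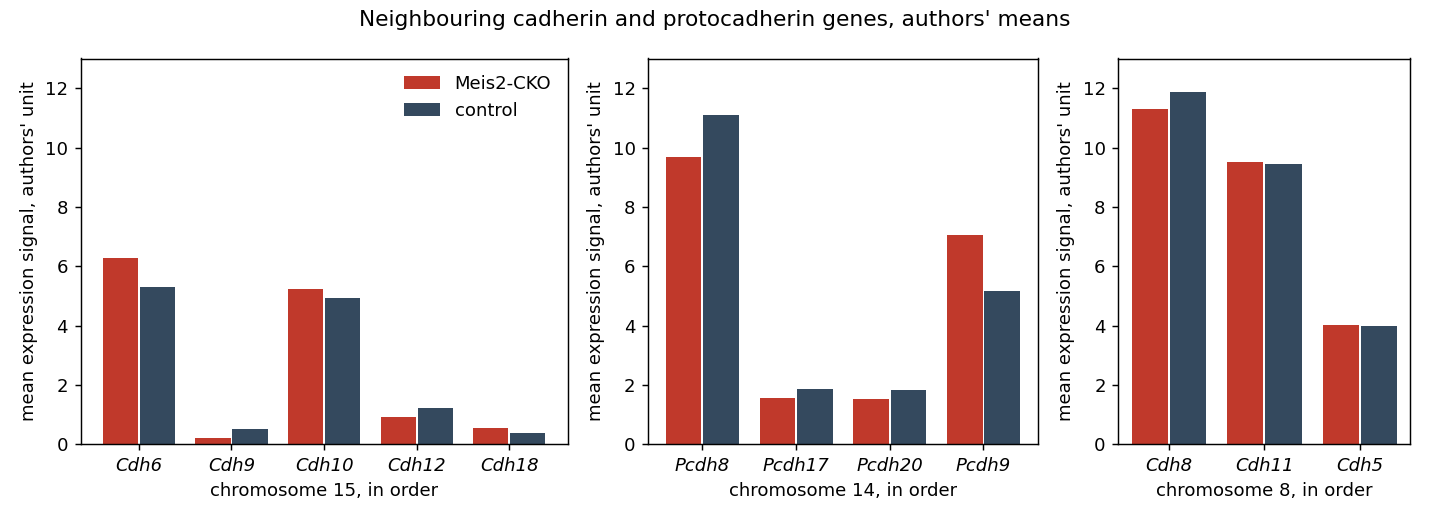
Authors' mean expression signal (bars from 0) of neighbouring members along chromosomes 15, 14 and 8, Meis2-CKO in red on the left of each pair and control in dark grey. Cdh6 and Cdh10 are the highest of the members on chromosome 15. Pcdh9 is the member with the widest gap between the bars on chromosome 14, 7.05 in Meis2-CKO and 5.18 in control.

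The catenins and junction adaptors that carry the cadherin tail gave no call: 12 of 13 listed genes had a row, 8 lay above 0, and the median log2 fold change was 0.03 in the authors' deposited table. Ctnnb1, beta-catenin, had authors' means of 667 in Meis2-CKO and 615 in control (p = 0.104 in the authors' deposited table), and Ctnna1, the epithelial alpha-catenin, had 60.3 in Meis2-CKO and 53.8 in control. Neuronal alpha-catenin, Ctnna2, went the other way, with 54.4 in Meis2-CKO and 58.4 in control; it was named after its value was seen. The 3 nectins with a row, immunoglobulin-type adhesion proteins of the same junctions, had a median of 0.01 in the authors' deposited table. Nectin2 stood at 10.1 in Meis2-CKO and 9.49 in control, and Nectin3 at 15.4 in Meis2-CKO and 15.7 in control. Of 18 atypical cadherins and their regulator Fjx1, 13 had a row, 8 lay below 0 and none passed, with a median of -0.05 in the authors' deposited table. Clstn2, a calsyntenin of synapses, had authors' means of 4.12 in Meis2-CKO and 6.01 in control, and Celsr1, a planar polarity cadherin of progenitors, had 12.3 in Meis2-CKO and 9.99 in control. None of 8 desmosomal cadherins had a row.

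Enzymes that process cadherins likewise gave no call among 8 genes, with a median log2 fold change of 0.02 in the authors' deposited table. Psen2, a presenilin, stood at 2.33 in Meis2-CKO and 3.14 in control, and its complex partner Ncstn at 38.3 in Meis2-CKO and 36.5 in control. The 9 genes of the WAVE complex, which non-clustered protocadherins recruit, had a median of -0.01 and no call in the authors' deposited table. Wasf2 stood at 11.1 in Meis2-CKO and 9.57 in control, and Abi2 at 34.5 in Meis2-CKO and 37.6 in control. Of 6 repressors of E-cadherin 3 had a row and none passed. Zeb2, a zinc-finger factor that also acts in ventral forebrain neurons, had authors' means of 86.3 in Meis2-CKO and 71.0 in control, with an unadjusted p of 0.0149 and an adjusted p of 0.999987 in the authors' deposited table. Zeb1 stood at 31.2 in Meis2-CKO and 29.7 in control.

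**Figure D4:**
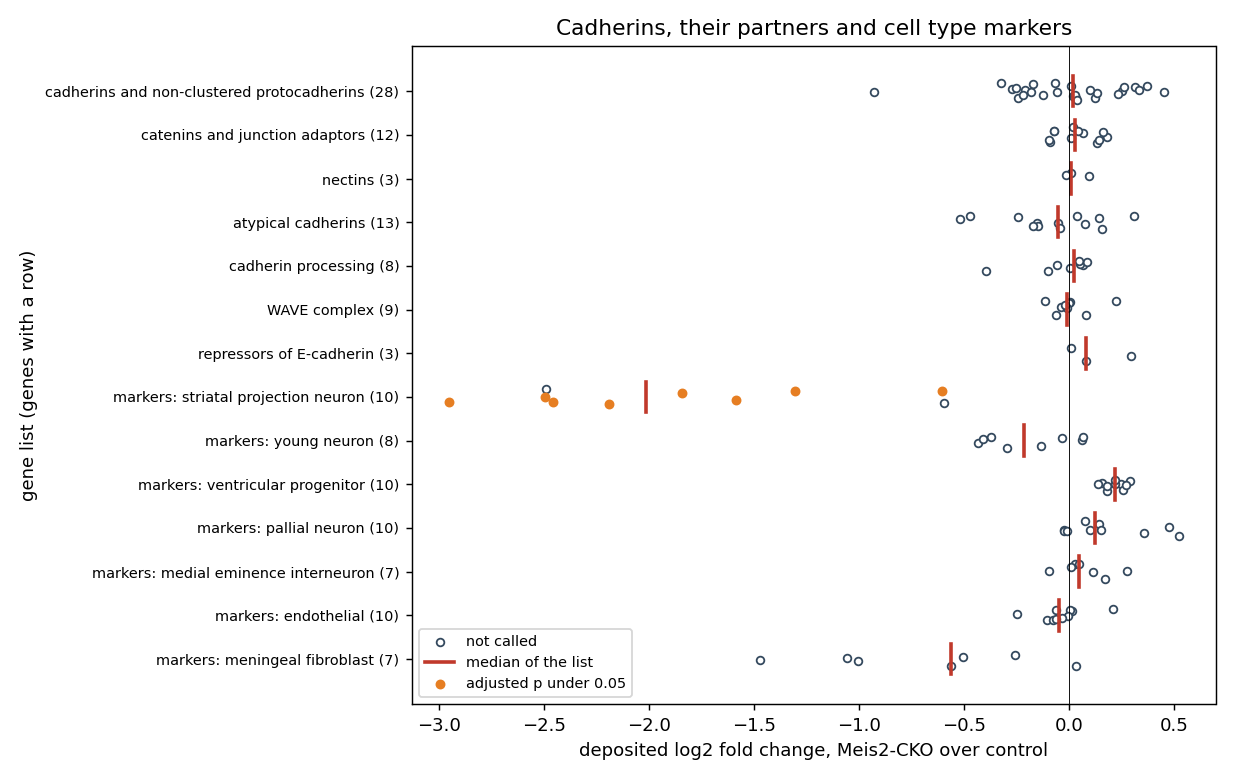
Deposited log2 fold change, Meis2-CKO over control, on the horizontal axis for each gene of 14 lists (rows, number of genes with a row in brackets); filled orange points passed an adjusted p of 0.05 and red bars mark list medians. The 28 members and the lists of their partners hold no filled point and have medians between -0.05 and 0.08, while 8 of 10 striatal markers are filled and lie below 0.

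Meis2 and most markers of striatal projection neurons passed the test that none of the 28 members passed. The marker lists were chosen with earlier results of these data known. Only 0.344% of protein-coding genes passed in the authors' deposited table, so a set as small as the members would mostly hold no call. The contrast therefore does not set the members apart from other genes. Meis2 itself had authors' means of 140 in Meis2-CKO and 204 in control and was lower with a log2 fold change of -0.53 (adjusted p = 0.00195) in the authors' deposited table. All 10 striatal projection neuron markers lay below 0, with a list median of -2.02 in the authors' deposited table. Of these, 8 passed, among them Isl1, Ebf1 and Tac1 (adjusted p = 7.8e-26, 1.34e-10 and 1.64e-09 in the authors' deposited table). Their summed authors' means were 108 in Meis2-CKO and 277 in control. Isl1, a LIM homeodomain factor, stood at 12.5 in Meis2-CKO and 57.9 in control. Among the 24 members with a higher mean of at least 1, the log2 fold changes lay between -0.33 and 0.45 in the authors' deposited table. All 10 ventricular progenitor markers lay above 0 with a median of 0.22, none passing, in the authors' deposited table. Nes, an intermediate filament of progenitors, stood at 126 in Meis2-CKO and 104 in control, and Sox2 at 142 in Meis2-CKO and 121 in control. Of 8 young neuron markers 6 lay below 0 and 2 above, with a median of -0.21 and none passing, in the authors' deposited table. Before adjustment, 4 of these 8 had a p under 0.05 there, beside 1 of the 10 progenitor markers and 1.36% of the protein-coding genes. Stmn4 stood at 91.9 in Meis2-CKO and 120 in control, and Ina at 47.4 in Meis2-CKO and 63.5 in control. The part of these markers' cell types in the members' values was not tested.

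Markers of other cell types were present too. Of the 10 pallial neuron markers, 7 lay above 0 and 3 below, with a median of 0.12 and none passing, in the authors' deposited table. Their log2 fold changes ran from -0.02 to 0.52 there. They summed to 230 in Meis2-CKO and 204 in control. The largest rises of the list were those of Neurog2 and Eomes, so these genes do not stand for the whole list. Neurog2 stood at 27.4 in Meis2-CKO and 19.2 in control, and Eomes at 18.2 in Meis2-CKO and 13.2 in control. The 7 medial eminence interneuron markers used summed to 143 in Meis2-CKO and 139 in control. Most of this was Sst, at 79.0 in Meis2-CKO and 78.2 in control. Lhx6 stood at 19.2 in Meis2-CKO and 17.2 in control, and Lhx8 at 3.72 in Meis2-CKO and 3.08 in control. Lhx6 and Lhx8 had the highest log2 fold changes of the 7, 0.17 and 0.27 in the authors' deposited table. They do not stand for the other markers of this list. Maf was the only one under 0, at -0.09, and the list median was 0.05, in the authors' deposited table. The 7 meningeal fibroblast markers summed to only 4.16 in Meis2-CKO and 6.89 in control, with Col1a2 at 0.802 in Meis2-CKO and 1.82 in control and Dcn at 0.09 in Meis2-CKO and 0.475 in control. Of 5 choroid plexus markers 2 had a row, Kcnj13 at 0.355 in Meis2-CKO and 0.035 in control and Otx2 at 7.50 in Meis2-CKO and 7.78 in control. None of these markers passed, and no marker with a row was listed at 0, in the authors' deposited table; their part in the members' values was not tested.

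The endothelial members can be set beside their own cell type. Cdh5, which encodes VE-cadherin of endothelial junctions, had authors' means of 4.02 in Meis2-CKO and 3.97 in control. Pcdh12, the other endothelial member, had 1.86 in Meis2-CKO and 1.83 in control. Their log2 fold changes of 0.03 and 0.04 in the authors' deposited table showed almost equal means. The 10 endothelial markers, none of which passed, summed to 79.9 in Meis2-CKO and 84.1 in control; Egfl7 stood at 17.7 in Meis2-CKO and 21.3 in control, and Pecam1 at 7.50 in Meis2-CKO and 6.53 in control.

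The order of the members by level was much the same in both genotypes. No member moved by more than 2 places among the 28, and 10 kept their place. The 5 most abundant in control, Cdh2, Cdh24, Pcdh10, Pcdh1 and Cdh4, held 63.3% of the members' summed signal in Meis2-CKO and 63.8% in control. The means differed by less than 10% of the control mean in 11 members. Without a spread between embryos, it is not shown which neighbours in the order truly differ in level.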

How the data were processed

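RNA from the LGE of 4 Meis2-CKO and 4 control samples was sequenced. The submitters' processing notes name FastQC 0.11.5, HISAT2 2.1.0, StringTie 1.3.1, GRCm38.p2 and mm10 without roles. The mean expression signal per genotype was averaged by the authors, per the file headers; its unit is not named. Over 5 bins of protein-coding genes, from a median exon length of 1724 nt to 10060 nt, the median control signal went from 9.18 to 14.2, so levels were compared between genes as apparently scaled by length. The log2 fold change, p-value and adjusted p are the authors' deposited values; a Benjamini-Hochberg adjustment of the p-values over all 16913 genes gave the same adjusted p. The deposited log2 fold change is not the plain log2 ratio of the deposited means, and in 570 genes it differed from them in direction. Depth is unknown, so no interval or floor is given.

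The table's 8 columns of values per library have names that match no sample label and were not used, so the planned fits on libraries were not run. The members and lists were chosen with earlier results of these data known. All 28 members were described; of each other list up to 3 called genes were named, or otherwise the 2 with the smallest p; exceptions are stated. The result for 1 marker gene is left out and not reported here, and it enters no sum or median of its list. Genes were placed with GENCODE M21 by Ensembl ID (16861 of 16913 matched). Promoter windows came from RefSeq on GRCm38.p6; in 22 of 23 the bases after the start matched a GENCODE transcript of the gene. The adjustment procedure was tested on simulated data. Alternatives were filters on the mean, the Benjamini-Yekutieli adjustment, protein-coding genes only, a fold change of 1.5, a pseudocount of 1, centring and, chosen after seeing the data, the plain ratio of the means. Tables were made in Python 3.11.15 with pandas 2.3.3, numpy 2.4.6 and scipy 1.17.1, figures with matplotlib 3.10.9.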

Additional observations from a re-analysis of the deposited data

How the results depend on the processing

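The count of members called was 0 higher and 0 lower under each alternative run: a higher mean of at least 1 (24 members) or 5 (15 members), the Benjamini-Yekutieli adjustment, protein-coding genes only and a fold change of at least 1.5. All of these reused the deposited p-values. An adjusted p cannot be smaller than the p it came from, and the members' smallest deposited p was 0.269. The counts of 0 were therefore fixed beforehand and are no test of the result. The median log2 fold change of the members, 0.018, was 0.0053 with a pseudocount of 1, 0.032 for members with a mean of at least 5, 0.0064 after centring and 0.0058 from the plain ratio of the means. Of the 28 members 27 kept their direction in each of these recalculations. The exception was Pcdh10, whose log2 fold change of 0.01 became -0.0033 with the pseudocount, -0.0027 after centring and -0.0035 from the ratio of the means. No paired analysis was possible because the columns of values per library carry no replicate number or sample name, and leaving out replicates, the other count test and the other pseudocount per library were not run for the same reason. The means give no spread, and below a mean of 5 the table called 3 protein-coding genes in all, in the range that held 13 members.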
